A study of Mus musculus with 7 samples.

Results

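Podocytes are the epithelial cells that cover the outer face of the glomerular capillaries. Their foot processes interlock, and the gaps between them are bridged by the slit diaphragm, a zipper-like junction built on nephrin that is part of the filter holding back plasma protein. The transcripts of 8 podocyte genes, taken by symbol from a list, were followed in the kidneys of cisplatin-treated mice. All 8 were among the 54532 genes of the count table, and all 8 passed the filter on low counts. The list mixes roles: Nphs1, which encodes nephrin, and Magi2, which encodes a scaffold that binds nephrin, belong to the slit diaphragm itself. Synpo, Podxl, Ptpro and Thsd7a encode other proteins of the foot process, Wt1 a transcription factor and Clic3 a chloride intracellular channel family protein, so the set is called podocyte genes here.

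Total RNA of whole kidney was sequenced from C57BL/6J mice of 6 to 8 weeks, male by the design text. The DXZ group of 3 libraries came from mice given cisplatin at 20 mg/kg and DXZ at 40 mg/kg, both into the tail vein, with DXZ first given 30 min ahead of cisplatin and repeated every 24 h for 3 days. The saline group of 4 libraries came from mice given the same cisplatin dose, so both groups carry the cisplatin injury, which falls mainly on tubules, and an uninjured kidney was not analysed here. DXZ is not spelled out in the labels. Nothing states that each library is a separate animal, so p-values measure the spread between these libraries, which may be technical.

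Libraries held 16058157 to 18133736 counts, and the 8 genes together took 0.0285% to 0.0512% of them. The defining podocyte transcript Nphs1 was detected in every library, with at least 339 counts. DXZ 1 stood apart from DXZ 2 and DXZ 3: its mean centred log2 CPM (each gene's log2 CPM, or counts scaled to library size, less that gene's mean over the 7 libraries, averaged over a list) was 1.15 for macrophage and leukocyte genes and 0.75 for endothelial genes, against -0.42 and -0.91 in DXZ 2 and -0.76 and -1.43 in DXZ 3. Saline libraries lay between -0.41 and 0.49 for the macrophage list and between 0.11 and 0.70 for the endothelial list. Medians of the gene lists, and counts for some of them, are given without DXZ 1 as well where they changed markedly. DXZ 1 was set apart by values of these same data, so results without it, p-values included, are a description.

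The 3 podocyte genes with the largest fold differences were Clic3, Thsd7a and Ptpro, and the promoters of Thsd7a and Ptpro are shown because the comparison turns on these genes. The sequences are from RefSeq on GRCm38.p6 and run from 250 bases before to 50 bases after RefSeq's gene start. For some genes, among them Thsd7a, Nphs1 and Magi2 (in both its entries), that start lies inside the gene span given with their values. The windows shown are Thsd7a at chr6:12749204-12749503 on the minus strand and Ptpro at chr6:137252049-137252348 on the plus strand. Each reads 5′ to 3′ on the gene's own strand, and capitals mark matches, on either strand, to motifs of factors known from podocytes.
Thsd7a: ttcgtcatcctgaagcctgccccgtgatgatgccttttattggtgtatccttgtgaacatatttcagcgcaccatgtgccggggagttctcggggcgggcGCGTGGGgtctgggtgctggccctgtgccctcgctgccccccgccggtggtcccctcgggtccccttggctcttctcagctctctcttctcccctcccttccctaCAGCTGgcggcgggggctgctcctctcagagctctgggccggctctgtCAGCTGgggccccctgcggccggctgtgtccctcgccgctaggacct
Ptpro: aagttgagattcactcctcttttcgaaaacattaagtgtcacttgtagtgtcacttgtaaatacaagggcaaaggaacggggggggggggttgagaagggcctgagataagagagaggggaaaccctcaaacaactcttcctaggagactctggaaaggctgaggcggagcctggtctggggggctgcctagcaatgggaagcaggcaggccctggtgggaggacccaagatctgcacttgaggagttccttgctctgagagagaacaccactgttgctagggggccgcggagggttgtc

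The motifs described were the WT1 core GNGTGGG, the forkhead core GTAAACA, the homeodomain core TAATTA and the E-box CAGCTG, which reads the same on both strands. Positions are counted from RefSeq's start. The Thsd7a promoter held a WT1 core beginning 150 bases before the start and E-boxes beginning 45 bases before and at base 4 after it. Ptpro held none of these 4 motifs in this window. A WT1 core was present in 30.8% of all 32851 promoters of the same length and an E-box in 16.3%, so such matches are common. Of the 8 genes, 5 had an entry: Nphs1 held 1 WT1 core and Magi2, with 2 entries, held 3 in one of them, beside an E-box there and a homeodomain core in the other. No promoter of Wt1, Podxl or Synpo was searched. A match describes the letters in the window and is not evidence of binding.

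Per kilobase of transcript, Podxl was the most abundant of the 8 by a wide margin. It encodes podocalyxin, the charged sialomucin of the podocyte's free surface, which endothelial cells also make. Over the 7 libraries the mean level was 45.7 ± 9.69 FPKM for Podxl and 7.504 ± 1.19 FPKM for Synpo (SD, n = 7). Clic3 was at 6.18 ± 2.75 FPKM, Nphs1 at 4.84 ± 1.39 FPKM, Wt1 at 3.16 ± 0.795 FPKM and Ptpro at 3.15 ± 0.899 FPKM. Thsd7a was at 0.898 ± 0.270 FPKM and Magi2 at 0.436 ± 0.138 FPKM. Podxl lay above Synpo in all 7 libraries without overlap, and Ptpro likewise lay above Thsd7a. Within the middle group, neighbours overlapped: Synpo exceeded Clic3 in 4 of 7 libraries and Wt1 exceeded Ptpro in 3 of 7. Thsd7a exceeded Magi2 in each of the 7 libraries, although their ranges overlapped. Clic3 moved most in this order, ranking 3, 6 and 5 of the 8 in DXZ 1, DXZ 2 and DXZ 3, against 2, 3, 2 and 2 in saline 1 to 4.

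None of the 8 podocyte genes passed the test between groups, while every one of them had a negative log2 fold change of DXZ over saline. In the quasi-likelihood test of edgeR, with p-values adjusted by Benjamini-Hochberg over 15351 genes, 0 of 8 had an adjusted p below 0.05, where 5.56% of all tested genes did and 2.31% did with lower values in DXZ. At an unadjusted p below 0.05, 4 of 8 were lower in DXZ, against 11.4% of all tested genes. DESeq2 called 3 of 8 lower, against 5.82% of the genes it tested. The 8 were chosen with earlier results of these data known, so these shares are a description. The median log2 fold change of the 8 was -0.46, beside 0.01 over all tested genes, of which 48.7% were negative. In whole kidney, fewer podocytes and less RNA per podocyte cannot be told apart.

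**Figure D1:**
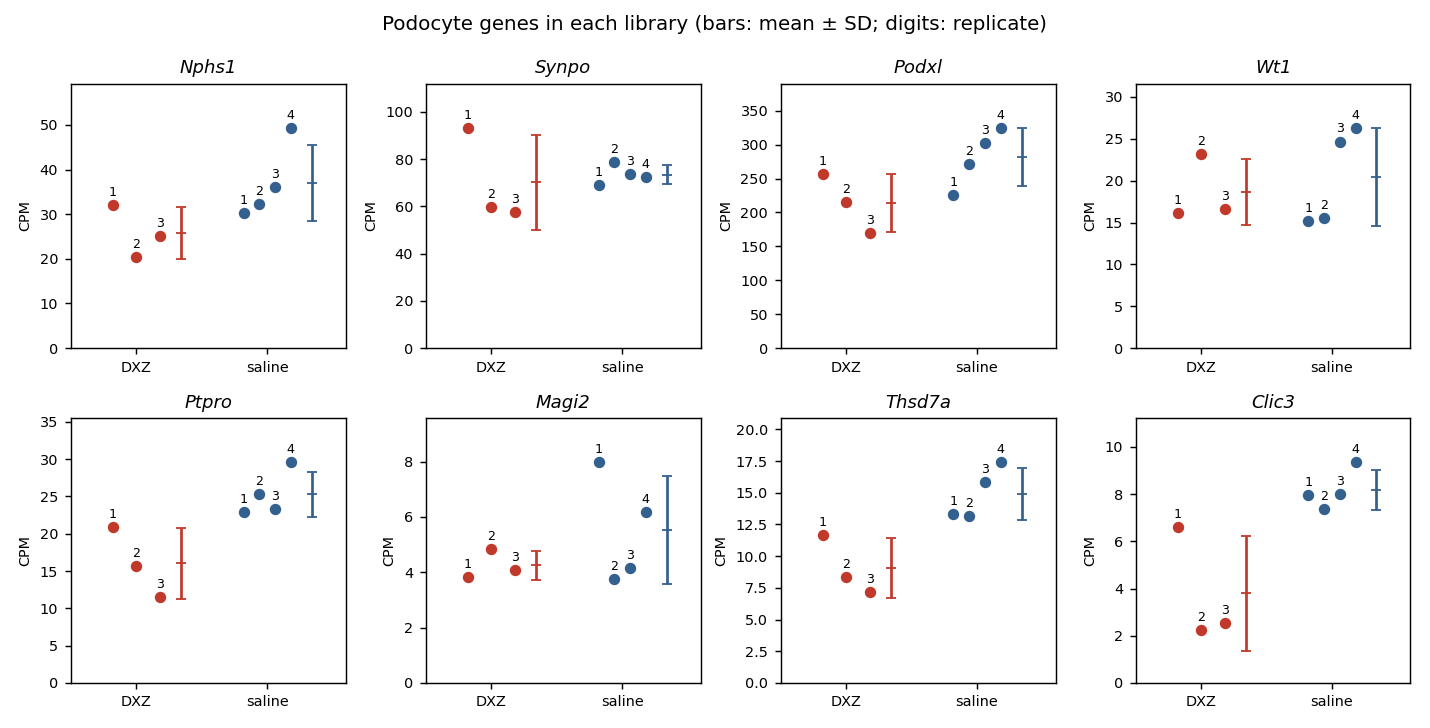
Level in CPM (counts scaled to library size, linear axes from 0) of each podocyte gene in the 3 DXZ and 4 saline libraries; digits give the replicate and bars the mean ± SD. In Ptpro, Thsd7a and Clic3 every DXZ library lies below every saline library, and among the DXZ libraries DXZ 1 is the nearest to saline in these 3 panels.

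Nphs1 encodes nephrin, the adhesion protein whose extracellular domains form the slit diaphragm (chromosome 7, 30458315 to 30487223, plus strand). It was at 32.0, 20.5 and 25.04 CPM in DXZ 1, 2 and 3, against 30.2, 32.3, 36.0 and 49.4 CPM in saline 1 to 4. DXZ 2 and DXZ 3 lay below all saline libraries, while DXZ 1 lay within their range and saline 4 was the highest. Nphs1 averaged 25.8 ± 5.80 CPM in DXZ (SD, n = 3) and 37.0 ± 8.61 CPM in saline (SD, n = 4). The log2 fold change was -0.52 (SE 0.21, 95% interval -0.999 to -0.03, edgeR adjusted p = 0.171). Without DXZ 1 it was -0.70 (edgeR adjusted p = 0.0771). It was -0.35 without saline 4 and -0.39 without DXZ 2 (edgeR adjusted p = 0.301 and 0.376). An antisense pseudogene, Rps12-ps4, shares 183 exonic bases with Nphs1 and had 49 to 90 counts per library; whether counting used strand is not given in the sources used here.

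Magi2 encodes a membrane-associated guanylate kinase scaffold that binds nephrin's cytoplasmic tail (chromosome 5, 19227036 to 20704792, plus strand). It was at 3.83, 4.84 and 4.07 CPM in DXZ 1 to 3, against 7.97, 3.75, 4.15 and 6.17 CPM in saline 1 to 4. The counts were low, 63 to 139 per library, and the groups overlapped, with saline 1 the highest and saline 2 the lowest. The log2 fold change was -0.38 (SE 0.30, 95% interval -1.06 to 0.31, edgeR adjusted p = 0.470), an interval that leaves room for both a fall of more than 2-fold and a rise.

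Synpo encodes synaptopodin, an actin-associated protein of the foot process (chromosome 18, 60593973 to 60660142, minus strand). It was at 93.3, 59.7 and 57.6 CPM in DXZ 1 to 3, against 69.0, 78.6, 73.7 and 72.3 CPM in saline 1 to 4. The saline libraries were close together, DXZ 1 was the highest of the 7, and DXZ 2 and DXZ 3 were the lowest. The log2 fold change was -0.06 (SE 0.17, 95% interval -0.46 to 0.33, edgeR adjusted p = 0.853), and without DXZ 1 it was -0.32 (SE 0.10, edgeR adjusted p = 0.0710). It was 0.024 without DXZ 2 and 0.050 without DXZ 3.

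Podxl (chromosome 6, 31519488 to 31563981, minus strand) was at 256.2, 215.0 and 170.1 CPM in DXZ 1 to 3, against 226.3, 271.2, 303.0 and 324.9 CPM in saline 1 to 4. DXZ 2 and DXZ 3 lay below all saline libraries and DXZ 1 exceeded saline 1. The log2 fold change was -0.40 (SE 0.18, 95% interval -0.80 to 0.01, edgeR adjusted p = 0.203), and it was -0.55 without DXZ 1 (edgeR adjusted p = 0.0876). It was -0.26 without DXZ 3 (edgeR adjusted p = 0.438).

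Ptpro encodes GLEPP1, a receptor tyrosine phosphatase of the foot process membrane (chromosome 6, 137252319 to 137463233, plus strand). It was at 20.9, 15.7 and 11.5 CPM in DXZ 1 to 3, against 22.9, 25.4, 23.3 and 29.6 CPM in saline 1 to 4. The groups did not overlap, although DXZ 1 was close to saline 1. Ptpro averaged 16.0 ± 4.73 CPM in DXZ and 25.3 ± 3.05 CPM in saline (SD, n = 3 and 4), which is -0.66 on the log2 scale (SE 0.20, 95% interval -1.13 to -0.19, edgeR adjusted p = 0.0943). Without DXZ 1, the highest DXZ library for Ptpro, it was -0.90 (SE 0.18, edgeR adjusted p = 0.0298). Without saline 4 it was -0.58 and did not pass (edgeR adjusted p = 0.200).

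Thsd7a encodes a thrombospondin type 1 domain protein of the podocyte membrane that is a target antigen in human membranous nephropathy (chromosome 6, 12311610 to 12749410, minus strand). It was at 11.7, 8.34 and 7.14 CPM in DXZ 1 to 3, against 13.3, 13.1, 15.8 and 17.4 CPM in saline 1 to 4, with no overlap between groups. It had the lowest adjusted p of the set over all libraries (log2 fold change -0.72, SE 0.20, 95% interval -1.18 to -0.26, edgeR adjusted p = 0.0732). It passed without DXZ 1, its highest DXZ library, at -0.94 (SE 0.18, edgeR adjusted p = 0.0277). Without DXZ 2 it was -0.68 and did not pass (edgeR adjusted p = 0.177).

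Clic3 (chromosome 2, 25456838 to 25458776, plus strand) showed the largest difference. It was at 6.59, 2.24 and 2.54 CPM in DXZ 1 to 3, against 7.97, 7.37, 8.00 and 9.34 CPM in saline 1 to 4. The raw counts behind these values were 117, 37 and 43 in DXZ 1 to 3, against 139, 124, 131 and 159 in saline 1 to 4. DXZ 2 and DXZ 3 stood well apart from the other 5 libraries, and DXZ 1 lay just under the saline range. Clic3 averaged 3.79 ± 2.43 CPM in DXZ and 8.17 ± 0.833 CPM in saline (SD, n = 3 and 4). The log2 fold change was -1.10 (SE 0.37, 95% interval -1.97 to -0.24, edgeR adjusted p = 0.115). Without DXZ 1, the highest DXZ library for Clic3, it was -1.77 on the log2 scale (SE 0.21, 95% interval -2.26 to -1.28, edgeR adjusted p = 0.0177), or 0.293 times the saline level. Without DXZ 2 it was -0.86 and did not pass (edgeR adjusted p = 0.251).

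Wt1 encodes the zinc finger transcription factor that maintains podocyte identity and is also expressed in parietal epithelial cells (chromosome 2, 105126529 to 105173616, plus strand). It was at 16.2, 23.2 and 16.6 CPM in DXZ 1 to 3, against 15.1, 15.6, 24.7 and 26.3 CPM in saline 1 to 4. Both groups held low and high libraries, and they overlapped throughout. The log2 fold change was -0.13 (SE 0.24, 95% interval -0.69 to 0.43, edgeR adjusted p = 0.783), and it was 0.015 without saline 4. Unlike Ptpro, Thsd7a and Clic3, Wt1 was above its own mean in DXZ 2.

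**Figure D2:**
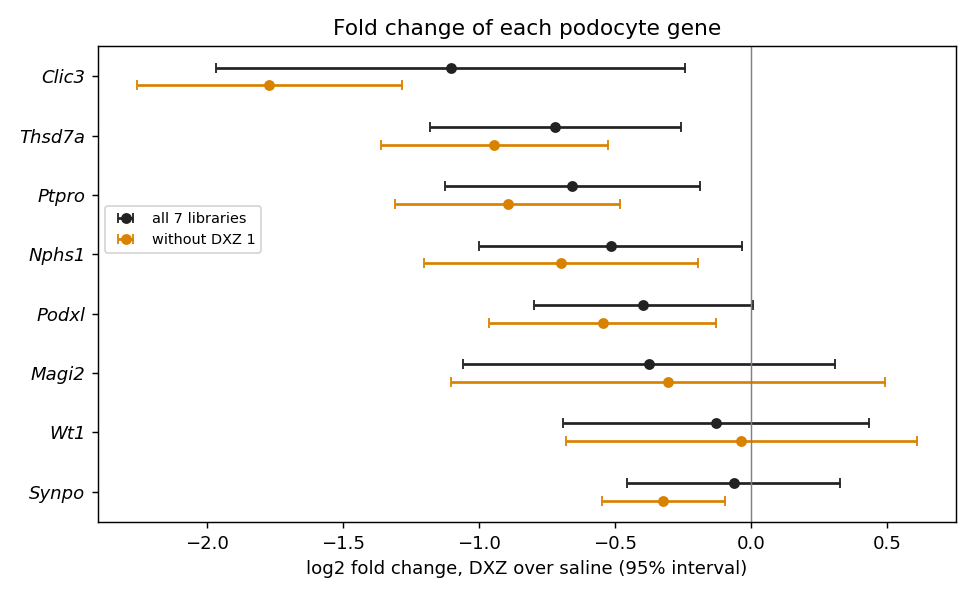
Log2 fold change of DXZ over saline for each podocyte gene with its 95% interval from the edgeR fit, with all 7 libraries (black) and without DXZ 1 (orange). All black points lie left of 0, from -1.10 for Clic3 to -0.06 for Synpo, and leaving out DXZ 1 moves 6 of the 8 further left and Magi2 and Wt1 towards 0.

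The groups did not overlap for 3 of the 8 genes, Ptpro, Thsd7a and Clic3, lower in DXZ in each case, where 11.3% of all tested genes were lower without overlap. Without DXZ 1 the count was 6 of 8, adding Nphs1, Synpo and Podxl, where 22% of all tested genes were lower without overlap. DXZ 1 was the highest DXZ library for these 3 added genes, so leaving it out could only reduce their overlap. Without saline 1 the count was 5, adding Nphs1 and Podxl, where 13.2% of all tested genes were. By edgeR's test without DXZ 1, 3 of the 8 were called, Ptpro, Thsd7a and Clic3, where 5.01% of 15610 genes were called lower. DXZ 1 was also the highest DXZ library for these 3 genes, so leaving it out could only lower their DXZ mean. DESeq2 over all libraries called the same 3 genes, with adjusted p-values of 0.0312, 0.0160 and 0.0263. So did limma-voom with sample quality weights, where 2.03% of all tested genes were called lower. Its weight for DXZ 1 was the lowest of all libraries (0.463), so it is not separate from leaving out DXZ 1. With other scaling, no filter, the replicate block or limma on log2 FPKM, 0 of the 8 were called.

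Library by library, the 8 genes were lowest in DXZ 3 and DXZ 2 and highest in saline 4. Their mean centred log2 CPM was 0.02, -0.37 and -0.53 in DXZ 1, 2 and 3, against 0.12, 0.07, 0.23 and 0.46 in saline 1 to 4. In DXZ 3 all 8 were below their own mean, in DXZ 2 6 were, and in DXZ 1 3 were. In saline 4 none was below its mean, and 6 of the 8 had their highest value there. DXZ 1 lay just below the saline range, nearer to saline 2 than to DXZ 2. The genes did not move in step: around the average of the 8, the root mean square difference over the 7 libraries was 0.12 on the log2 scale for Podxl and Thsd7a and 0.15 and 0.16 for Ptpro and Nphs1. It was 0.26 for Synpo, 0.37 for Wt1, 0.39 for Magi2 and 0.48 for Clic3.

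**Figure D3:**
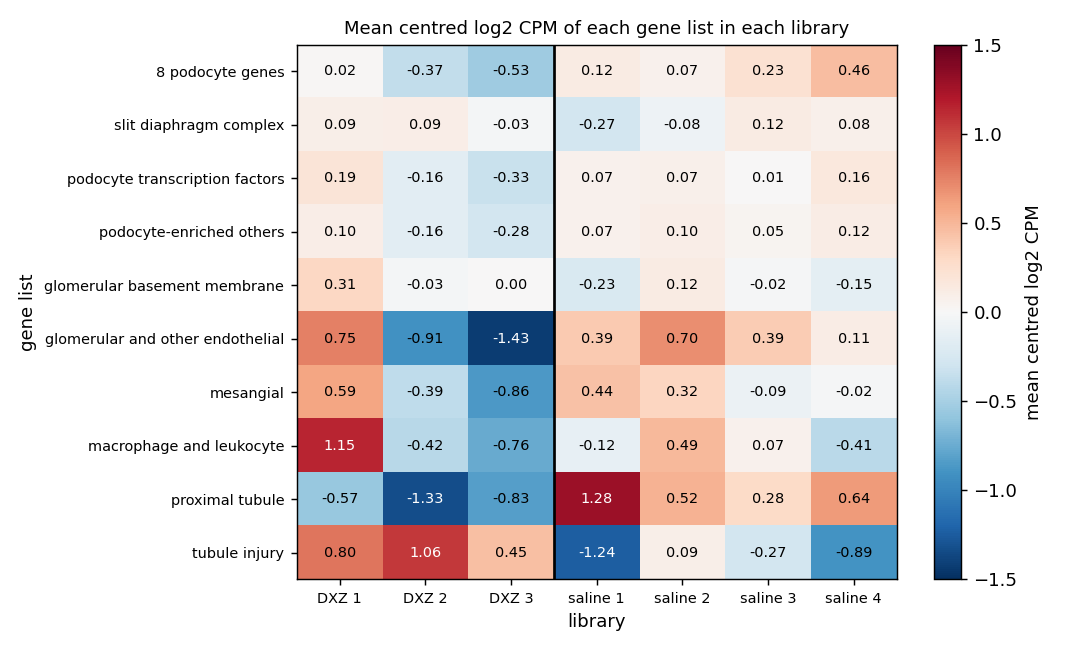
Mean centred log2 CPM of gene lists (rows) in each library (columns), with DXZ left of the line and saline right of it; red is above and blue below the mean over the 7 libraries. The podocyte genes span -0.53 in DXZ 3 to 0.46 in saline 4, less than the endothelial list, which spans -1.43 in DXZ 3 to 0.75 in DXZ 1.

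Other podocyte genes were taken from 5 lists drawn up by function. Of 18 genes of the slit diaphragm complex 16 were tested, 0 were called by edgeR and 1 by DESeq2 (Prkci, higher in DXZ). At an unadjusted p below 0.05 edgeR gave 5 higher (Cd2ap, Nck2, Prkci, Iqgap1 and Cdh3) and 0 lower. All of these but Cd2ap were chosen for naming after their values were seen. Of all 15351 tested genes, 3899 were below 0.05 in either direction, 1743 of them lower in DXZ. Whether the transcripts of these 5 genes came from podocytes was not tested. The median log2 fold change of the 16 was 0.04. Cd2ap, which encodes an adaptor that links nephrin to actin and is also made in tubules, averaged 236.6 ± 45.6 CPM in DXZ and 171.4 ± 24.1 CPM in saline (log2 fold change 0.47, SE 0.16, edgeR adjusted p = 0.121), with higher values in all 3 DXZ libraries. Trpc6, a calcium channel of the slit diaphragm, had 1 to 6 counts per library and was not tested, and Kirrel3 was not tested either. Some genes were chosen for naming after their values were seen: Kirrel, which encodes the nephrin partner NEPH1, was at -0.05, Ddn, encoding dendrin, at -0.10, and Plce1, encoding phospholipase C epsilon, at 0.22, and none passed (edgeR adjusted p between 0.516 and 0.903).

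Of 10 podocyte transcription factors 0 were called by edgeR or DESeq2, with none at an unadjusted p below 0.05 by edgeR, and the median log2 fold change was -0.12, or -0.38 without DXZ 1. Lmx1b, the factor mutated in human nail-patella syndrome, was at -0.16 (SE 0.32, edgeR adjusted p = 0.795). Tcf21, which podocytes share with stromal cells, was at 17.4, 3.81 and 3.31 CPM in DXZ 1 to 3, against 16.8, 18.4, 8.25 and 9.52 CPM in saline 1 to 4. DXZ 1 thus matched the upper saline libraries. The log2 fold change of Tcf21 was -0.69 with all libraries (SE 0.60, edgeR adjusted p = 0.513). It was -1.89 without DXZ 1, the highest DXZ library, whose removal could only lower the DXZ mean.

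Of 20 other podocyte-enriched genes 2 fell and 0 rose, with a median log2 fold change of -0.21, where 2.31% of all tested genes fell. Without DXZ 1 4 fell and the median was -0.25, where 5.01% of all tested genes fell. Enpep, which encodes aminopeptidase A of podocytes and of the proximal tubule brush border, averaged 100.2 ± 10.8 CPM in DXZ and 188.0 ± 21.9 CPM in saline (log2 fold change -0.91, SE 0.13, edgeR adjusted p = 0.0204). Ildr2 averaged 47.9 ± 2.58 CPM in DXZ and 76.6 ± 11.5 CPM in saline (log2 fold change -0.68, SE 0.13, edgeR adjusted p = 0.0336). The groups overlapped for neither gene, and DXZ 1 was on the DXZ side in both. Both calls were lost without saline 4, DXZ 2 or DXZ 3, with adjusted p-values of up to 0.0747 for Enpep and 0.103 for Ildr2. Cdkn1c, the cell cycle inhibitor of mature podocytes, was at -0.18 and Nes, which encodes the intermediate filament protein nestin, at 0.34, and neither passed (edgeR adjusted p = 0.628 and 0.297). Robo2, a receptor that joins nephrin through an adaptor, was chosen after its values were seen. It was at -0.59 (edgeR adjusted p = 0.137), and at -0.89 without DXZ 1, given with no test.

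Of 9 genes of the glomerular basement membrane 2 fell and 0 rose by edgeR, where 2.31% of all tested genes fell. The median log2 fold change was 0.24. DESeq2 called the same 2 lower and 2 higher, Lama5 and Agrn, which encode a laminin chain and the proteoglycan agrin and were named after their values were seen (DESeq2 adjusted p = 0.0164 and 0.0041). Without DXZ 1 the median was -0.083, edgeR called 1 gene higher beside the 2 lower, and Lama5 was at 0.60. The 2 that fell, Col4a3 and Col4a4, encode collagen IV chains that podocytes secrete and that join into 1 network. Whether their transcripts came from podocytes was not tested. Col4a3 was at 101.6, 96.4 and 88.5 CPM in DXZ 1 to 3, against 122.1, 129.4, 137.1 and 147.3 CPM in saline 1 to 4 (log2 fold change -0.49, SE 0.10, edgeR adjusted p = 0.0381). Col4a4 was at 108.5, 89.7 and 102.7 CPM in DXZ 1 to 3, against 138.0, 135.9, 147.8 and 154.7 CPM in saline 1 to 4 (log2 fold change -0.52, SE 0.10, edgeR adjusted p = 0.0332). In both, DXZ 1 lay below all saline libraries. Their calls were lost without saline 4, DXZ 2 or DXZ 3, among others, with adjusted p-values of up to 0.108 and 0.0981.

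Of 17 genes of the podocyte cytoskeleton and adhesion, 3 rose and 1 fell, at a median log2 fold change of 0.17. Most of these 17 are also expressed by tubule cells. Without DXZ 1 3 rose and 2 fell. Of all 15351 tested genes 498 rose and 355 fell, and without DXZ 1 5.01% fell. Cd151, a tetraspanin partner of integrins, rose to 274.7 ± 12.8 CPM in DXZ, against 176.4 ± 16.5 CPM in saline (log2 fold change 0.64, edgeR adjusted p = 0.0224). Inf2, an actin-nucleating formin, was at 0.84 and Ezr, encoding ezrin, which tethers podocalyxin to actin, at 0.46 (edgeR adjusted p = 0.0333 and 0.0486). Arhgap24, a Rac-inactivating protein, fell, at -0.57 (edgeR adjusted p = 0.0319). Among genes chosen after their values were seen, Itga3, the podocyte integrin chain, was at 0.94 (edgeR adjusted p = 0.0654). Slc9a3r2, which links podocalyxin to ezrin, was at 63.6, 31.1 and 25.3 CPM in DXZ 1 to 3. In saline 1 to 4 it was at 51.9, 65.8, 64.8 and 58.8 CPM. Its log2 fold change was -0.59 (edgeR adjusted p = 0.251). Without DXZ 1, its highest DXZ library, it was -1.09, given with no test. Of the 8 genes called in these 5 lists, all kept their call without DXZ 1, and none kept it without saline 4, DXZ 2 or DXZ 3.

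**Figure D4:**
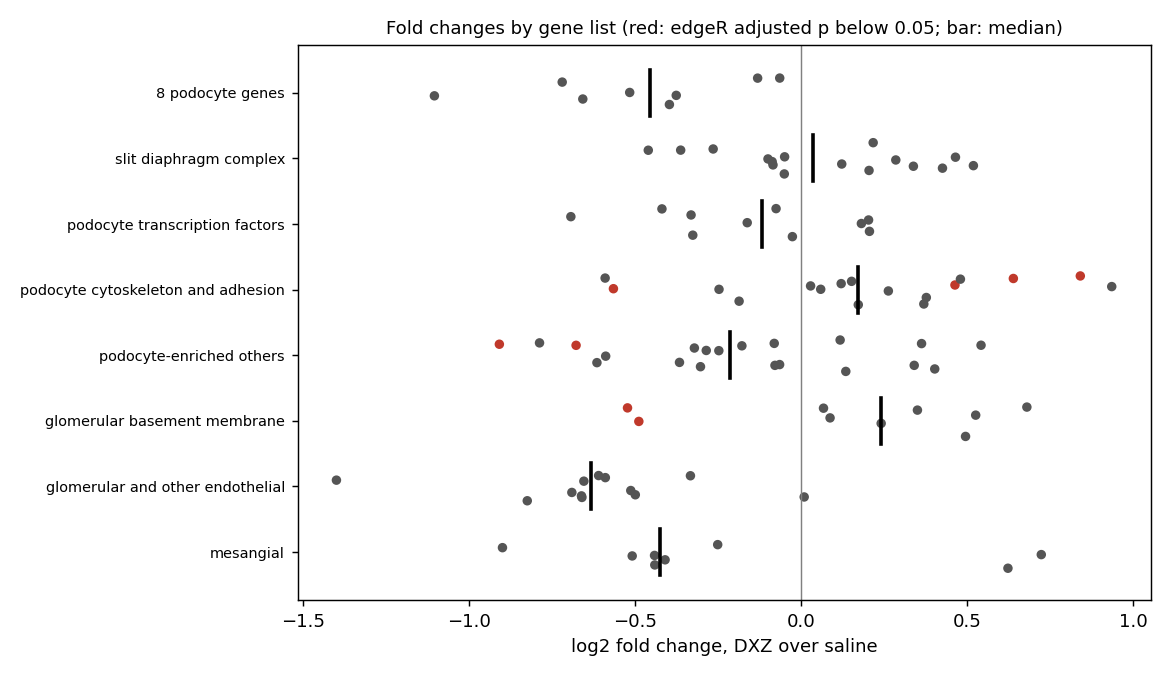
Log2 fold change of DXZ over saline for each tested gene (points; red where edgeR's adjusted p is below 0.05) by gene list, with the median of each list as a bar; vertical scatter within a row has no meaning. The 8 podocyte genes all lie left of 0 with a median of -0.46, while the slit diaphragm complex spans 0 with a median of 0.04 and the endothelial genes have a median of -0.63.

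Markers of other cells moved beside these values. Of 12 endothelial genes, glomerular ones included, 0 were called with all libraries by edgeR or DESeq2 (1 lower at an unadjusted p below 0.05), at a median log2 fold change of -0.63, and the median was -1.45 without DXZ 1. Since DXZ 1 was set apart by its endothelial and macrophage genes, values of those lists without it are given as a description, with no test. Their summed level was 753.8, 188.8 and 128.0 CPM in DXZ 1 to 3, against 557.9, 692.8, 509.7 and 391.9 CPM in saline 1 to 4, and no marker was at 0 in all libraries. DXZ 2 and DXZ 3 were thus lowest both for endothelial genes and for Clic3, Thsd7a, Ptpro, Nphs1, Podxl and Synpo. Plvap, encoding a diaphragm protein of fenestrated endothelium, was at -0.66 and Flt1, a VEGF receptor, at -0.33, and without DXZ 1 the values were -3.28 and -1.35. Of 9 mesangial genes 8 were tested and 0 were called by either tool or at an unadjusted p below 0.05. The median was -0.42, or -0.90 without DXZ 1. DXZ 1 stood apart here too, at 0.59 in mean centred log2 CPM, against -0.39 in DXZ 2 and -0.86 in DXZ 3. Mesangial calls without it are not given. The summed mesangial level was 284.4, 160.8 and 88.6 CPM in DXZ 1 to 3, against 121.4 to 189.2 CPM in saline. Pdgfrb was at -0.41 (-1.86 without DXZ 1) and Serpine2 at 0.72. The part of these cells in the podocyte values was not tested.

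The proximal tubule and tubule injury lists had larger median fold changes than the podocyte lists, a difference that was not tested. By edgeR 498 of all 15351 tested genes rose and 355 fell, and 1574 of 15610 were called in either direction without DXZ 1. Of 10 proximal tubule genes 5 fell and 0 rose, at a median log2 fold change of -1.51, with summed levels of 1902 to 2955 CPM in DXZ, against 5280.3 to 11874 CPM in saline. Slc34a1 was at -2.88, Slc7a7 at -2.22 and Slc5a12 at -2.13, while Ass1, at -1.38, did not pass (edgeR adjusted p = 0.0518). Of 10 tubule injury genes 3 rose (5 without DXZ 1) and 0 fell, at a median of 1.33, with Krt8 at 1.198 and Krt18 at 1.47 among them; Clu at 0.88 and Spp1 at 0.47 did not pass (edgeR adjusted p = 0.0584 and 0.526). Of 8 parietal epithelial genes 1 fell, Cldn2, which proximal tubules express as well (-0.62, edgeR adjusted p = 0.0390), and Lad1 was at 0.02, at a list median of 0.07. Of 10 distal tubule and collecting duct genes 1 fell (2 without DXZ 1), Slc12a3 at -1.59, while Umod was at -0.36 and Aqp2 at 0.81 (median -0.33). Smooth muscle and pericyte genes had 0 of 8 called by edgeR and 1 by DESeq2 (1 lower at an unadjusted p below 0.05) at a median of -0.25, with Ren1 at -0.89 and Mylk at -0.23. Without DXZ 1 the smooth muscle median was -0.62. This list also set DXZ 1 apart, at a mean centred log2 CPM of 0.42, against -0.66 and -0.56 in DXZ 2 and DXZ 3. Its calls without DXZ 1 are therefore left out. Urothelial genes had 0 of 5 called by either tool (1 higher at an unadjusted p below 0.05) at a median of 1.90, with Upk1b at 1.90 and Upk3a at 2.62. Macrophage and leukocyte genes had 2 of 9 tested genes higher, Cd68 at 1.91 and Cd14 at 0.90, at a median of 0.07, or -0.90 without DXZ 1, and C1qb was at -0.07, or -1.44 without DXZ 1. Over all lists 20 genes were called, of which 0 kept the call without saline 4 or without DXZ 2, 6 without DXZ 3 and all 20 without DXZ 1.

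The genes whose profile over the 7 libraries was nearest to the average of the 8 podocyte genes were sought among 12673 others with a mean of at least 1 CPM. Nearness was the root mean square difference of centred log2 CPM over the 7 libraries. The nearest was Mfsd4b3 at 0.0728, followed by Neurl1b at 0.0807, Tmco6 at 0.0901, Colgalt2 at 0.0911, Ap1g1 at 0.1001, Thop1 at 0.1004, Cmtr1 at 0.103 and Syne1 at 0.106. None of these 8 was in a podocyte list. Ap1g1, a subunit of a clathrin adaptor, was the one of them that passed the test, at 75.0 ± 6.94 CPM in DXZ and 101.8 ± 8.18 CPM in saline (log2 fold change -0.44, edgeR adjusted p = 0.0494). Of the genes in the other lists the nearest was Col4a3, ranked 14, followed by Arhgap24 at 28 and Col4a4 at 54.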

How the data were processed

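Whole-kidney RNA-seq of 7 libraries, 3 DXZ and 4 saline, all from cisplatin-treated mice, was used as deposited. The deposited counts are whole-number read counts per gene with no normalization. The deposited FPKM values are those counts divided by gene length and a constant per library, which equalled the counts' median-of-ratios size factors up to a common scale, so they are not a second measurement; FPKM was used for levels between genes. Per the submitters' processing notes, HISAT2, StringTie and build mm9 were involved; no version or role is stated. The table's coordinates are not mm9: 98.3% of 54409 shared identifiers, and all 8 podocyte genes, had the start and end of GENCODE M21, so they are given as GRCm38. Which program counted, and whether by strand, is not given in the sources used here.

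Of 54532 genes, 15351 passed edgeR's filterByExpr. DXZ and saline were compared on TMM-scaled counts with no covariate by the quasi-likelihood test of edgeR 4.0.16 (R 4.3.3), adjusted over all tested genes; a gene was called at an adjusted p below 0.05. SE is the log2 fold change over the square root of F, and 95% intervals use the test's t distribution. CPM uses TMM-scaled library sizes; log2 CPM adds a prior count of 2. Alternatives were DESeq2 1.42.0, limma 3.58.1 on log2 FPKM or with voom, other scaling and filters, a replicate block, and each library left out. The podocyte genes and the 14 other lists were chosen with earlier results of these data known. Named genes beyond the 8 are well-known podocyte genes, called genes of each list (up to 4, or 2 for other cell types), the 2 most abundant of each other cell type, the 8 most like the podocyte genes, and those said to be chosen after their values were seen. No library was a copy of another: between replicates the chi-square over its degrees of freedom was 14.0 to 90.4. The scripts were tested on simulated data. Some results of the chosen genes and promoters are not reported here.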

Additional observations from a re-analysis of the deposited data

Results flagged for a closer look

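Among the 78 groups of 4 saline libraries examined, 5 held a library whose gap to its nearest neighbour was over Dixon's 95% limit for 4 values, where chance flags about 1 in 20, and none was one of the 8 podocyte genes. Mfsd4b3, the gene most like them, was at 31.2 CPM in saline 4, against 25.05 to 25.9 CPM in the other saline libraries. Ass1 was at 2406 CPM in saline 1, against 1056 to 1263 CPM in the others. Krt18 was at 75.4 CPM in saline 3, against 41.0 to 46.5 CPM. Upk1b was at 8.80 CPM in saline 3, against 0.353 to 1.67 CPM, and Upk3a at 4.64 CPM in saline 3, against 0.115 to 0.833 CPM.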

How the results depend on the processing

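The median log2 fold change of the 8 podocyte genes stayed negative under every alternative run, between -0.62 (without DXZ 1) and -0.34 (without saline 4). The count of the 8 called was 3 by DESeq2 and 3 by limma-voom with sample quality weights (842 over all genes), and ran from 0 to 3 with 1 library left out, 3 without DXZ 1 and 0 otherwise; other alternatives gave 0. Counts whose groups did not overlap ran from 3 to 6 with 1 library left out. Over all genes, the 853 calls became 2027 by DESeq2, 145 by limma on log2(FPKM + 1) with no filter, and 1 (without DXZ 2) to 1574 (without DXZ 1) with 1 library left out. Wt1 turned positive, at 0.032, with the replicate block, and at 0.015 without saline 4, within -0.33 to 0.015 with 1 library left out. Synpo turned positive, at 0.024 without DXZ 2 and 0.050 without DXZ 3, within -0.32 to 0.050. The cause was not tested. Filtered FPKM held no value for Thsd7a or Magi2, which lie under a mean of 1, and no overlap count was made with the block or voom. Same-numbered libraries of the groups correlated at 0.26, -0.09 and 0.23 in their deviations, and not every library correlated best with its own number, so the number is not taken as a pairing; with the replicate block 85 genes and 0 of the 8 were called. Depth limits Magi2 and Clic3 most, at 63 to 139 and 37 to 159 counts a library.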
